A study of Danio rerio with 6 samples.

Results

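The polyamine genes described here are 10 of the 37685 genes in the deposited table of zebrafish larvae: odc1, amd1, srm, sms, oaz1a, oaz1b, azin1a, azin1b, paox and smox. They were matched by gene symbol, and rows that carry a member's symbol with a numeric suffix were added to it. The set was proposed because paox counts were much lower in the morpholino libraries, so the paox difference is described without a test and supports nothing else. Whole larvae of 72 hours post fertilization were profiled by poly-A RNA sequencing in 3 control libraries (wild type, AB strain) and 3 libraries of AB larvae that had received an antisense morpholino, GJB2-MO, by injection into the 1-cell embryo. GJB2 encodes connexin 26, a gap junction channel protein whose loss causes deafness in humans, and a morpholino is a synthetic oligonucleotide that blocks translation or splicing of the RNA it binds. How many larvae went into a library is not in the labels, nor whether libraries came from separate clutches or controls were injected, so the p-values refer only to the spread among the 6 libraries, part of which may be technical. No library used here is labelled as larvae given a control oligonucleotide. The morpholino defines the treated group, so its sequence is shown 5′ to 3′, with CAT, the reverse complement of a start codon, in capitals at bases 18 to 20 of 25.
GJB2-MO: taaagtgctccccaactCATcctgt

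Polyamines (putrescine, spermidine and spermine) are small positively charged molecules that bind nucleic acids and are needed for cell growth. Ornithine decarboxylase makes putrescine, and the synthases extend it with groups taken from decarboxylated S-adenosylmethionine. Antizymes bind ornithine decarboxylase and send it to the proteasome, and antizyme inhibitors compete for that binding. Spermine is turned back to spermidine either directly by spermine oxidase or by acetylation followed by the peroxisomal enzyme polyamine oxidase. These roles are best known from mammals.

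Total counts ranged from 14582030 to 19743658 per library. Levels are given as TMM-scaled CPM (counts per 1000000 counts after scaling of library sizes) when a gene is compared between libraries, and as deposited TPM (transcripts per 1000000 transcripts, a per-length scale) when genes are compared with each other. Differences are log2 fold changes of morpholino over control with their standard error (SE). A gene is called at a Benjamini-Hochberg adjusted p under 0.05 in edgeR's quasi-likelihood test over 22247 genes. The SE was derived as the absolute log2 fold change divided by the square root of that test's F statistic. Principal component 1 (35.7% of the variance) separated the groups. All 79 markers listed for liver, gut, pancreas, kidney, muscle, neurons, blood and phagocytes had counts. The median log2 fold change of all genes was 0.01, and 6.19% of genes were called, 2.88% higher and 3.31% lower in the morpholino libraries.

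Among the other 9 genes, odc1 fell and none of the remaining 8 passed the test. The count of 1 lower and 0 higher of 9 stands beside 3.31% and 2.88% of all genes, and the median log2 fold change of the 9 was -0.04. In CPM, 3 of the 9 (odc1, smox and oaz1a) were lower in every morpholino library than in any control, beside 14.1% of all genes lower without overlap and 27.8% without overlap in either direction. None of the 9 was higher without overlap. All 10 genes passed the filter on low counts, paox through its control libraries.

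The gene of the first enzyme of synthesis was lower in the morpholino libraries. odc1 (chromosome 17, 51743921 to 51757548, plus strand), which encodes ornithine decarboxylase, stood at 38.6, 46.1 and 49.2 CPM in control libraries 1 to 3 against 25.4, 30.9 and 26.2 CPM in morpholino libraries 1 to 3. The groups did not overlap, and the lowest control was above the highest morpholino library. The gene fell by 0.70 ± 0.11 on the log2 scale, to 0.616 of the control level (adjusted p = 0.00436). In whole larvae, fewer cells that express a gene and less RNA of it per cell cannot be told apart.

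The enzymes after odc1 gave no call. sms (chromosome 21, 25399162 to 25416391), which encodes spermine synthase, was the steadiest of the 4 synthesis genes, between 57.5 and 61.3 CPM in all 6 libraries (log2 fold change -0.02 ± 0.07, adjusted p = 0.926). srm (chromosome 23, 28718859 to 28727106), the spermidine synthase gene, ranged from 20.4 to 26.0 CPM in the controls against 21.7 to 25.1 CPM in the morpholino libraries (-0.04 ± 0.11, adjusted p = 0.873).

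amd1 varied more within the groups than between them. This gene (chromosome 20, 2950005 to 2978968) encodes the decarboxylase that supplies the aminopropyl groups, and stood at 33.7, 34.1 and 17.5 CPM in the controls against 30.3, 15.7 and 31.6 CPM in the morpholino libraries. Control library 3 and morpholino library 2 were low, at about the same level, and the other 4 libraries lay close together. The log2 fold change was -0.14 ± 0.42 (adjusted p = 0.895), and its sign turned when control library 2 (0.02) or morpholino library 2 (0.12) was left out. Nearly all its reads were in a row without coordinates, amd1_1, whose counts were 479, 563 and 295 in the controls, against 544, 297 and 496 in the morpholino libraries. The row with coordinates held 0 to 8 counts per library, and both low libraries were low in amd1_1 itself.

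**Figure D1:**
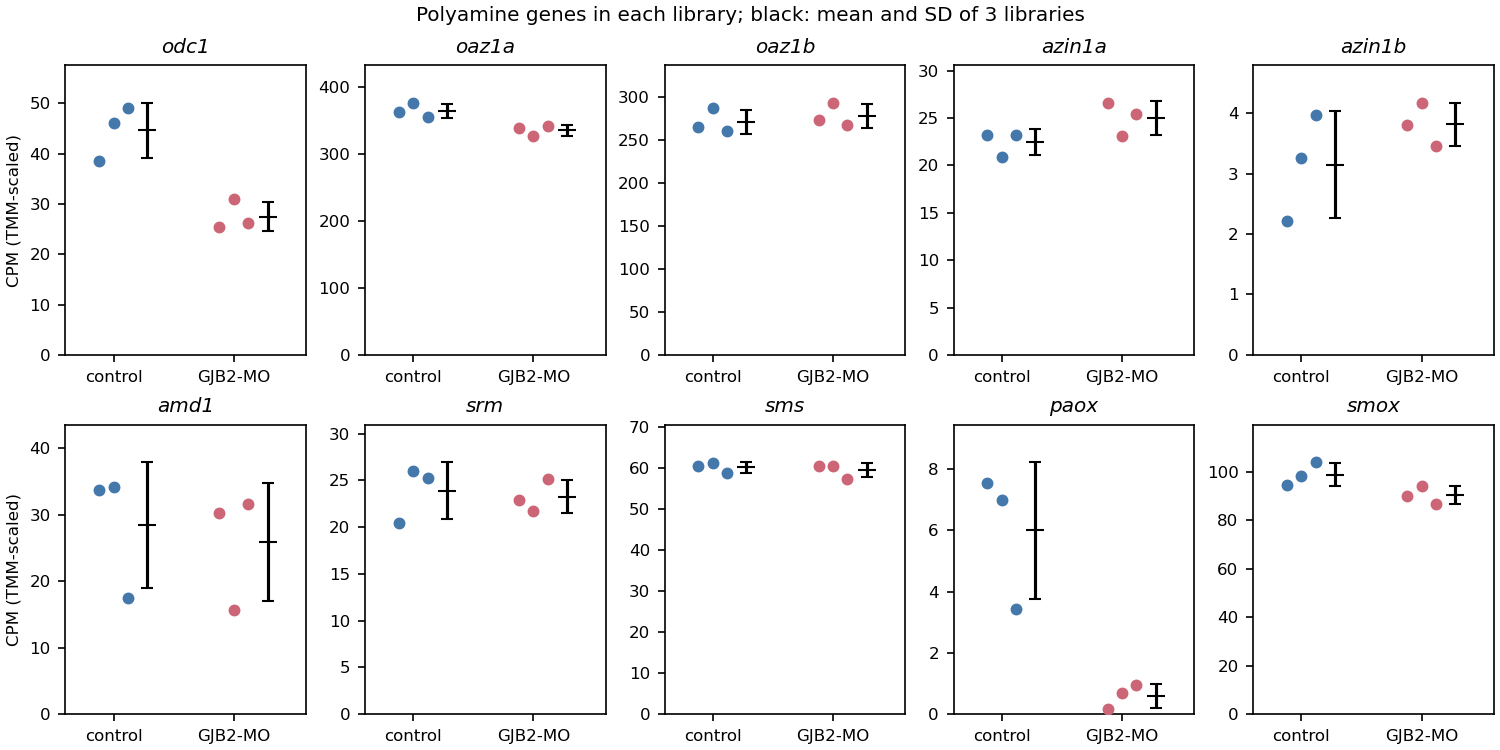
Level of each of the 10 polyamine genes in TMM-scaled CPM (linear axis from 0) in 3 control and 3 GJB2-MO libraries; coloured points are libraries 1 to 3 from left to right, and black marks are the mean and SD. The groups are apart for odc1, paox, oaz1a and smox, and amd1 has 1 low library in each group.

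The antizyme genes were the most abundant of the set and moved little. oaz1a (chromosome 22, 20714624 to 20720445) stood at 363, 376 and 355 CPM in the controls against 338, 327 and 342 CPM in the morpholino libraries. Its groups did not overlap, but the difference was small and did not pass the test (-0.12 ± 0.06, adjusted p = 0.286). The duplicate oaz1b (chromosome 21, 723971 to 735589) stood at 271 ± 14.3 CPM in the controls against 278 ± 13.5 CPM in the morpholino libraries (SD, n = 3 per group; 0.04 ± 0.07, adjusted p = 0.816). Summed TPM of the antizyme duplicates was 695 ± 28.7 and 652 ± 22.8.

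With odc1 lower and antizymes near their control level, the ratio of their transcripts was lower. odc1 TPM was 4.29%, 4.88% and 5.57% of the summed TPM of oaz1a and oaz1b in the controls against 2.94%, 3.57% and 3.03% in the morpholino libraries. No morpholino library reached the lowest control, with a mean log2 difference of -0.62 (exact permutation test, two-sided, p = 0.1, the smallest p that 3 against 3 libraries allow). The ratio concerns RNA only and rests mainly on odc1.

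Both antizyme inhibitor genes, which encode relatives of ornithine decarboxylase that bind antizyme, had higher mean levels without a call. azin1a (chromosome 16, 52708030 to 52736552) ranged from 20.9 to 23.3 CPM in the controls against 23.1 to 26.6 CPM in the morpholino libraries, with the ranges touching (0.16 ± 0.09, adjusted p = 0.366). azin1b (chromosome 19, 32930476 to 32944035) was low, with 32 to 67 counts per control library and 55 to 80 per morpholino library (0.27 ± 0.24, adjusted p = 0.555). Its suffix row had no counts.

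Of the oxidases, paox was much lower and smox nearly level. paox (chromosome 13, 30655172 to 30662403, minus strand) held 109, 116 and 58 counts in controls 1 to 3, against 3, 13 and 15 in the morpholino libraries. These counts are 7.54, 6.99 and 3.44 CPM against 0.166, 0.677 and 0.945 CPM. Every morpholino library was below the lowest control, control library 3 was the lowest of the controls, and morpholino library 1 was lowest of all. The log2 fold change was -3.33, a level 0.0994 of the control on 31 against 283 counts.

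smox (chromosome 1, 41849152 to 41865986), the spermine oxidase gene, stood at 94.4, 98.1 and 104 CPM in the controls against 90.2, 94.0 and 86.8 CPM in the morpholino libraries. All morpholino libraries were below all controls by a small margin, and the difference did not pass the test (-0.13 ± 0.07, adjusted p = 0.282).

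The table holds other rows described as polyamine oxidases, which were looked up after the paox values were seen. paox1 on chromosome 8 (15239549 to 15250265) held 93, 88 and 130 counts in the controls, against 132, 150 and 141 in the morpholino libraries. These counts are 6.44, 5.30 and 7.72 CPM against 7.29, 7.82 and 8.89 CPM, so control library 3 was above morpholino library 1. LOC110440136 on chromosome 12 (1338688 to 1345722), described as a peroxisomal acetylpolyamine oxidase-like gene, held 41, 27 and 0 counts in the controls, against 0, 0 and 1 in the morpholino libraries. Thus control library 3, which had the lowest paox of the controls, had no counts in this row and the most paox1 of the controls.

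Summed over the 3 oxidase rows, the difference was smaller. The sums were 10.9, 9.27 and 8.10 TPM in the controls against 5.74, 6.06 and 7.45 TPM in the morpholino libraries. The groups still did not overlap, with means of 9.43 ± 1.41 and 6.42 ± 0.907 TPM and a log2 ratio of -0.55. The sum contains paox, whose fall chose the set, so this gap supports nothing else. For paox1 alone the groups overlapped. Whether reads were exchanged between these related rows was not tested.

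**Figure D2:**
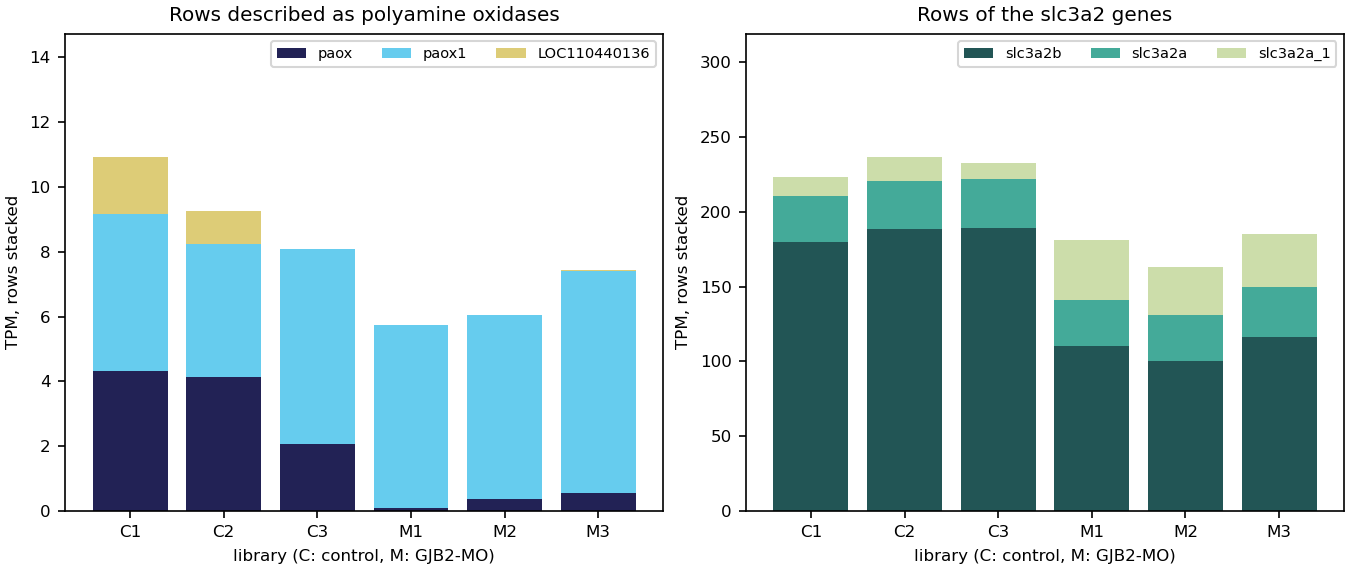
Deposited TPM (linear axis) of rows stacked per library, for 3 rows described as polyamine oxidases (left) and for the rows of the slc3a2 genes (right); C1 to C3 are controls and M1 to M3 are GJB2-MO. At left the paox part shrinks from 4.33 to 2.06 TPM in the controls to under 1 TPM in the morpholino libraries while paox1 has its highest value, 6.85 TPM, in M3, and at right the slc3a2a_1 part is larger and the slc3a2b part smaller in M1 to M3.

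On the per-length scale the order of the genes was almost the same in both groups. Mean TPM in the controls fell in order from oaz1a (486 ± 16.6) and oaz1b (209 ± 12.2) through smox (72.3 ± 4.93), sms (49.7 ± 1.09) and odc1 (34.2 ± 4.83) to azin1a (13.5 ± 0.806), srm (13.1 ± 1.90), amd1 (8.80 ± 2.84), paox (3.51 ± 1.26) and azin1b (1.84 ± 0.551). Neighbouring levels were apart by more than their spread down to odc1. azin1a and srm overlapped, as did paox and azin1b. In the morpholino libraries the only change of rank was that paox (0.344 ± 0.231 TPM) came after azin1b (2.18 ± 0.142 TPM).

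The wider pathway was read from 6 lists with 40 genes for precursor supply, antizymes other than the members, acetylation and terminal oxidation, hypusine, methionine salvage and transport. Of the 36 genes tested, 3 rose and 4 fell, and their median log2 fold change was -0.02. Of the genes not tested, 2 symbols found no row and sat2a had no counts in any library. In the methionine salvage list, 6 of 7 genes passed the filter on low counts. As shares of the 36, these counts lie above the 2.88% and 3.31% of all genes called higher and lower, but no test of the list was made. The number called was 3 to 5 when any single library was left out, with 3 called without control library 1, 2 or 3, 4 without morpholino library 1 or 2, and 4 in DESeq2.

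**Figure D3:**
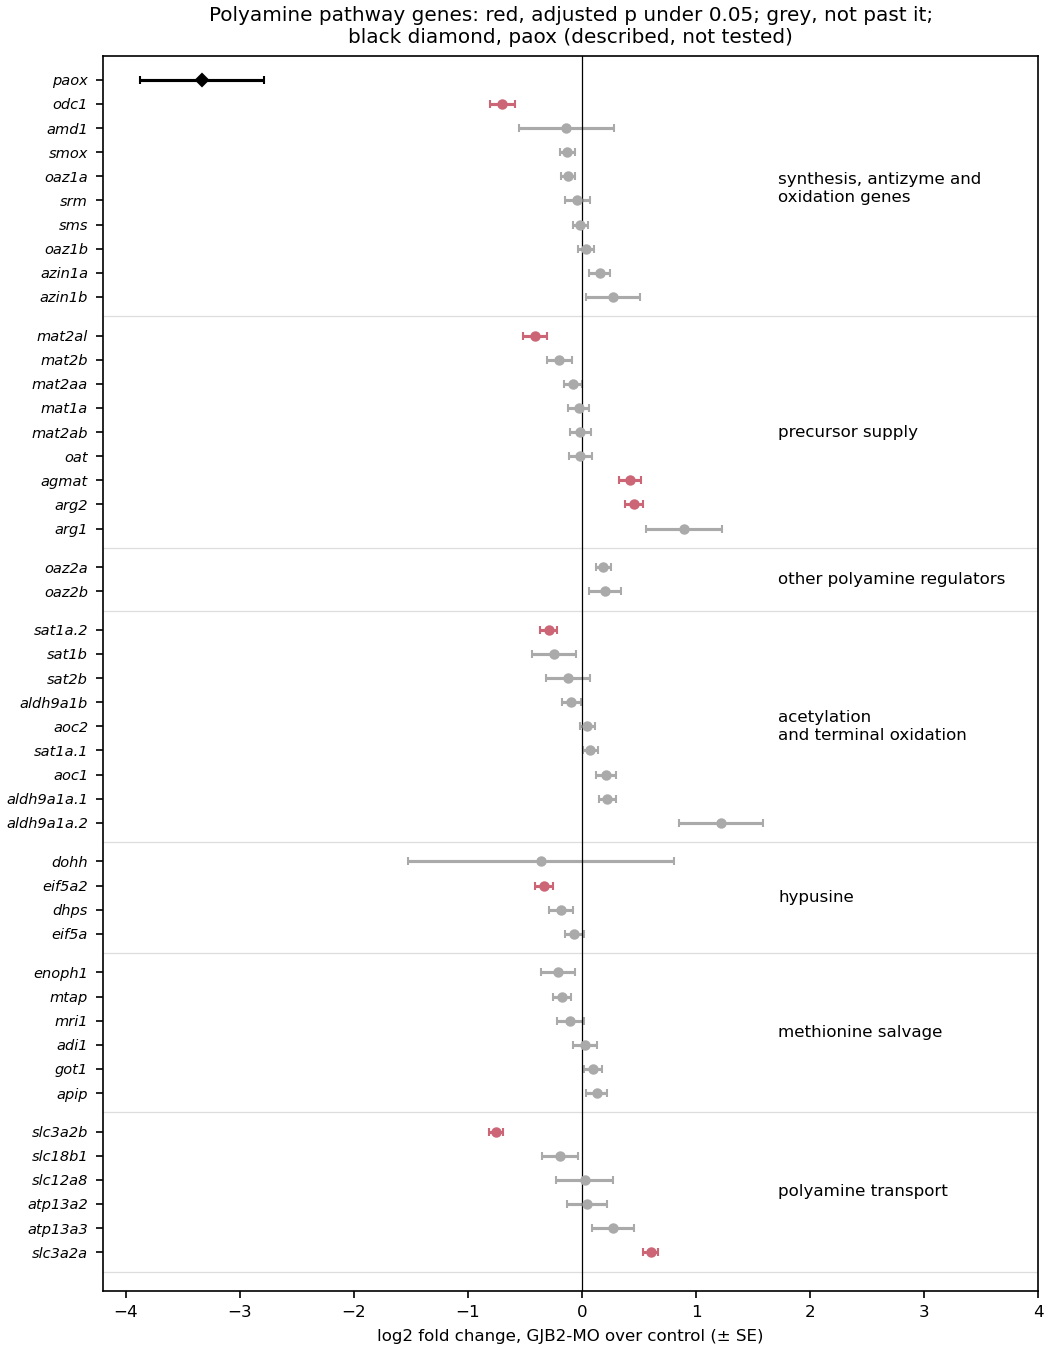
log2 fold change (± SE) of the 10 polyamine genes and of 36 wider pathway genes, grouped by role. Red points passed an adjusted p under 0.05 and grey points did not. The black diamond is paox, shown without a test, and its bar is a description only. Called genes lie on both sides of 0, from slc3a2b at -0.75 to slc3a2a at 0.60.

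Of 9 precursor genes, 2 rose and 1 fell, beside 2.88% of all genes called higher and 3.31% lower. No test of this list was made. arg2, which encodes the mitochondrial arginase that makes ornithine, the substrate of ornithine decarboxylase, stood at 52.0, 46.2 and 45.6 CPM in the controls against 62.8, 70.1 and 64.7 CPM in the morpholino libraries. The groups were apart, and arg2 rose by 0.46 ± 0.08 (adjusted p = 0.00709) while odc1 fell in the same libraries. agmat, described in the table as a putative agmatinase, an enzyme that makes putrescine from agmatine, rose from 16.0 ± 0.0392 to 21.4 ± 1.43 CPM (0.42 ± 0.09, adjusted p = 0.0243). The agmat call was lost in DESeq2 (adjusted p = 0.0523) and without any library except morpholino library 3.

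mat2al, a methionine adenosyltransferase gene, fell by 0.41 ± 0.11 with its rows summed (adjusted p = 0.0428). A minor row was called on its own, with 47, 35 and 73 counts in the controls, against 2, 2 and 1 in the morpholino libraries. The main row mat2al_1, with 93.0% of the counts, did not pass (-0.23 ± 0.11, adjusted p = 0.225). The summed call was also lost in DESeq2 and without any library except morpholino library 1. The more abundant mat2aa, which encodes the enzyme that makes S-adenosylmethionine outside the liver, was at -0.08 ± 0.08 (adjusted p = 0.602).

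Antizymes outside the set and methionine salvage gave no call. oaz2a and oaz2b, further antizyme genes, were at 0.19 ± 0.07 (adjusted p = 0.132) and 0.20 ± 0.14 (adjusted p = 0.454). In CPM each had all morpholino libraries above all controls. Of all genes, 27.8% were without overlap in either direction, and 14.1% were lower without overlap. Of 6 methionine salvage genes, which recycle the methylthioadenosine left by the synthases, none was called. mtap, whose product makes the first cut of that molecule, ranged from 30.6 to 32.5 CPM in the controls against 27.5 to 28.7 CPM in the morpholino libraries (-0.18 ± 0.08, adjusted p = 0.207). enoph1, a later enzyme of the route, was at -0.21 ± 0.15 with rows summed (adjusted p = 0.463).

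In acetylation and terminal oxidation, 1 of 9 genes fell and 0 rose, beside 3.31% and 2.88% of all genes. By point estimate, 5 of the 9 were higher and 4 lower. Summed CPM of this list was 795 to 848 in the controls, against 852 to 957 in the morpholino libraries. sat1a.2, a tandem copy of the spermidine/spermine acetyltransferase gene that provides the substrate of polyamine oxidase, went from 51.8, 50.9 and 54.3 CPM to 45.9, 41.7 and 40.8 CPM. The groups were apart, and the fall was 0.29 ± 0.07 (adjusted p = 0.0436). The call was lost in DESeq2, with the replicate number as a covariate, and without any 1 of the 6 libraries. Its neighbour copy sat1a.1 was at 0.07 ± 0.06 (adjusted p = 0.565), and the copies can share reads. Summed TPM of both was 170 ± 6.08 in the controls against 162 ± 8.30 in the morpholino libraries.

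In the hypusine list, 1 of 4 genes (eif5a2) fell and 0 rose, beside 3.31% and 2.88% of all genes. Hypusine is an amino acid made from spermidine on the translation factor eIF5A, and eif5a2 encodes a copy of this factor. It stood at 307, 332 and 318 CPM in the controls against 261, 225 and 275 CPM in the morpholino libraries. The fall was 0.33 ± 0.08 (adjusted p = 0.0338), lost without morpholino library 1 or without control library 1, 2 or 3. eif5a did not pass (-0.07 ± 0.08, adjusted p = 0.699), nor did dhps, whose enzyme starts hypusine synthesis (-0.19 ± 0.10, adjusted p = 0.334). dohh, the remaining gene of the list, had the lowest log2 fold change, -0.36, and was not called. All 4 genes of the list were lower by point estimate. The median log2 fold change of all genes was 0.01, so lower point estimates were common among all genes. With so few genes this is a description, and no test of the list was made. Their summed level was 879 to 956 CPM in the controls, against 762 to 846 CPM in the morpholino libraries.

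The largest called differences of the wider pathway were those of the slc3a2 genes, and they went opposite ways. These genes encode the heavy chain shared by several amino acid transporters, which has been linked to polyamine export in human cells. slc3a2b stood at 231, 235 and 234 CPM in the controls against 137, 133 and 145 CPM in the morpholino libraries. The spread within each group was a small part of that gap, and the gene fell by 0.75 ± 0.06 (adjusted p = 1.2e-04). slc3a2a rose from 57.4, 61.1 and 54.5 CPM to 89.9, 84.6 and 88.0 CPM (0.60 ± 0.07, adjusted p = 8.4e-04).

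The slc3a2a rise was carried by a row without coordinates. slc3a2a_1 went from 16.7, 20.0 and 13.8 CPM to 51.4, 43.4 and 44.8 CPM, while the row of the plain symbol stayed between 38.5 and 43.2 CPM (0.01 ± 0.07, adjusted p = 0.977). Summed, the slc3a2 genes made 231 ± 6.61 TPM in the controls against 176 ± 11.8 TPM in the morpholino libraries. slc3a2a provided 18.6% to 20.3% of that sum in the controls against 37.3% to 39.1% in the morpholino libraries.

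Genes of the MYC family and related genes were listed because odc1 is a textbook target of MYC, a transcription factor of growth. This list, like the others, was chosen with earlier results of these data known, so it is no independent check of odc1. Of 6 such genes, none rose and 2 fell, beside 3.31% of all genes lower. mych went from 139, 132 and 125 CPM to 60.1, 78.2 and 64.6 CPM (-0.96 ± 0.09, adjusted p = 5.2e-04). mycb went from 46.7, 47.2 and 44.6 CPM to 24.7, 30.3 and 32.3 CPM (-0.67 ± 0.10, adjusted p = 0.00349). Of the 6 genes, 3, these 2 among them, had all controls above all morpholino libraries, beside 14.1% of all genes. Their part in the odc1 result was not tested. The paralogs myca (0.06 ± 0.10, adjusted p = 0.761) and mycn (-0.14 ± 0.07, adjusted p = 0.293) and the partner gene max (0.05 ± 0.06, adjusted p = 0.704) did not pass. mnta, the remaining gene of the list, was not called either.

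Of 16 marker genes of dividing cells none rose, 9 fell and 7 did not pass the test, beside 2.88% of all genes called higher and 3.31% lower. None of the 16 was at 0 counts. Their summed level was 1462 to 1632 CPM in the controls, against 1224 to 1268 CPM in the morpholino libraries. Their part in the odc1 result was not tested. Of the 79 markers of other cell types, 6 rose and 1 fell, beside the same shares of all genes. In these lists, 2 of 13 exocrine pancreas genes rose (summed level 5935 to 8265 against 9392 to 11823 CPM) and 2 of 11 macrophage and neutrophil genes rose (138 to 184 against 203 to 221 CPM). In addition, 1 of 10 hepatocyte genes and 1 of 8 erythrocyte genes rose, and 1 of 10 skeletal muscle genes fell. By point estimate, 2 of the 8 erythrocyte genes were higher and 6 lower, with a median log2 fold change of -0.17. The part of these markers in the rises of arg2, agmat and slc3a2a was not tested either.

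**Figure D4:**
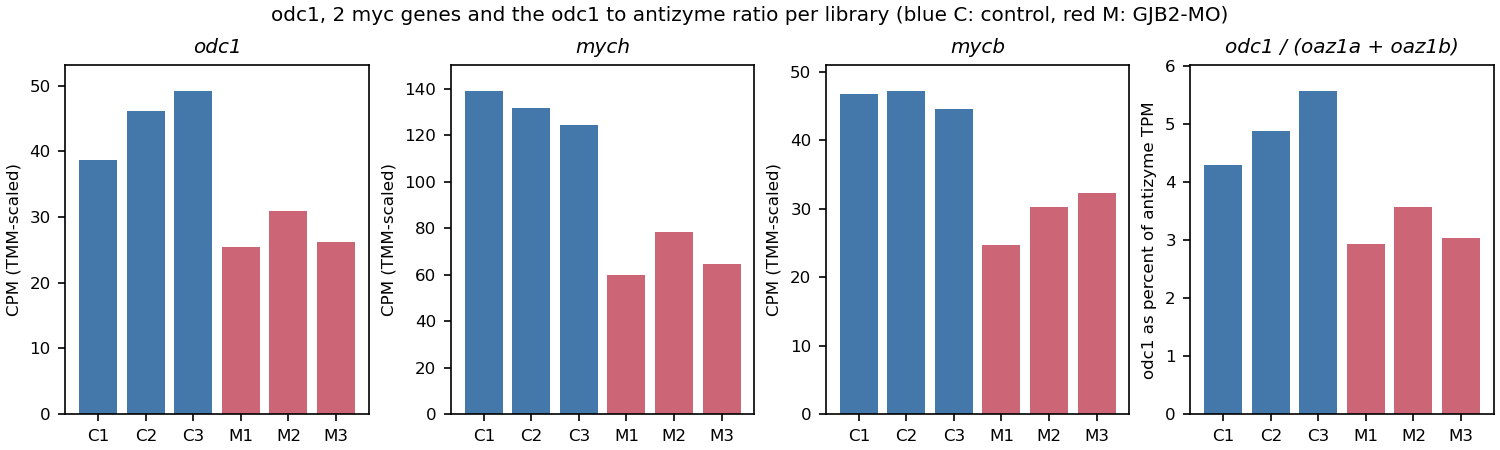
Per-library level of odc1, mych and mycb in TMM-scaled CPM, and odc1 TPM as a percentage of summed oaz1a and oaz1b TPM; C1 to C3 (blue) are controls and M1 to M3 (red) are GJB2-MO, with axes from 0. In each panel all morpholino libraries are below all controls, odc1 for example at 25.4 to 30.9 against 38.6 to 49.2 CPM.

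Other peroxisomal genes were listed because polyamine oxidase is a peroxisomal enzyme. Of 37 tested genes for peroxisome assembly, oxidases and related enzymes, 1 rose and none fell, a share near the 2.88% of all genes called higher and 3.31% called lower, with a median log2 fold change of 0.07. By point estimate, 26 of the 37 were higher and 11 lower. The catalase gene cat was at 0.01 ± 0.06 and pex5, an import receptor gene, at -0.26 ± 0.12, neither past the test (adjusted p of 0.930 and 0.244). Summed CPM of the list was 1417 to 1539 in the controls, against 1550 to 1601 in the morpholino libraries.

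Genes beside the members on the chromosomes were compared next, taking the 5 nearest tested genes on each side by start position. Of 100 such genes, 2 rose and 4 fell, or 6.0%, close to the 6.19% of all genes. None of the 10 around paox or the 10 around odc1 was called. The genes around paox had log2 fold changes between -0.39 and 0.79, those around odc1 between -0.25 and 0.58.

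Of the called neighbours, 5 are described here. Near oaz1b, LOC572200, described in the table as vimentin, fell by 0.94 ± 0.09 (adjusted p = 2.2e-04), and scarb2c, a scavenger receptor gene, rose by 0.42 ± 0.08 (adjusted p = 0.0125). syncrip near amd1 fell by 0.46 ± 0.09. st14b, a serine protease gene near sms, rose by 0.33 ± 0.08 (adjusted p = 0.0301), a call lost when any single library was left out. fam91a1 near azin1b fell by 4.53 ± 0.83 on few counts, from 4.89 ± 3.00 to 0.197 ± 0.192 CPM (adjusted p = 0.0356). The fam91a1 call was lost when any single morpholino library or control library 3 was left out. It was also lost when every gene with at least 1 count was kept. The number of called neighbours was 2 without morpholino library 1 and 3 without control library 3.

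**Figure D5:**
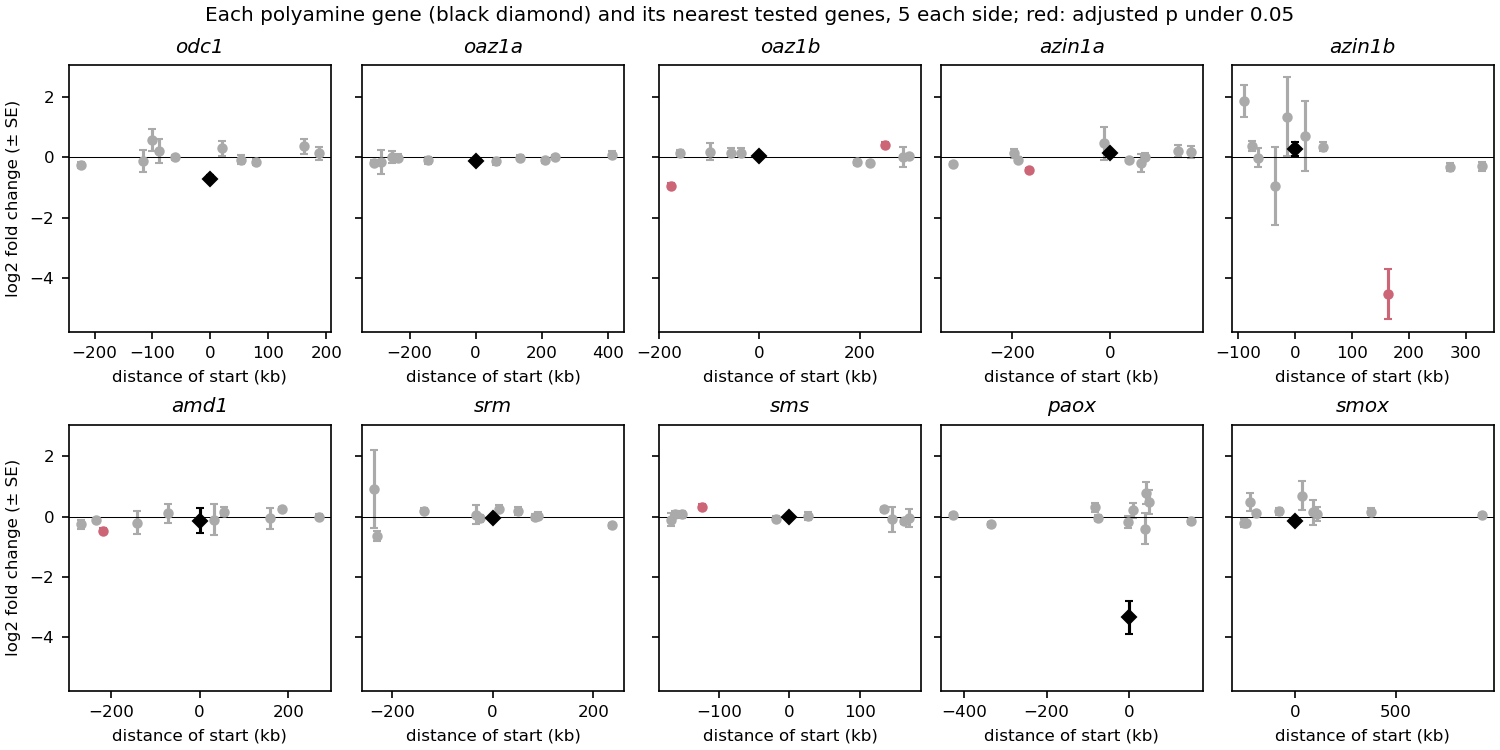
log2 fold change (± SE) of each polyamine gene (black diamond at 0) and of the 5 nearest tested genes on each side. The horizontal axis is the distance between gene starts in kb. Red points passed an adjusted p under 0.05, and the bar of paox is a description only. None of the neighbours of paox and odc1, between -0.39 and 0.79, was called, and the lowest point is fam91a1 at -4.53 near azin1b.

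Finally, profiles over the 6 libraries were compared with that of paox on the log2 CPM scale, with 0.5 CPM added. Among 17016 genes with a mean of at least 1 CPM, leaving out symbols with a clone or locus prefix such as si:, zgc: or LOC, the most alike were wu:fu71h07 (Pearson r = 0.994, itself a clone name whose prefix was not among those left out), the homeobox gene hoxc13a (0.994), the synaptotagmin gene syt5b (0.994), gigyf2 (0.993) and slc25a27 (0.991), a mitochondrial carrier gene. With 6 libraries and a split between groups, many genes reach a high r, and these values are a description. Their log2 fold changes, from -0.74 to -0.26, were all much smaller than that of paox.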

How the data were processed

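Read counts, FPKM and TPM were deposited by the authors in a table of 53709 rows. HISAT2, StringTie 1.3.1, RSEM and the build GRCz11 are named, without their roles, per the submitters' processing notes; the coordinates above are 1-based as deposited. The deposited counts are whole numbers, not normalized. FPKM values deposited by the authors were not used further, and TPM values deposited by the authors were summed over rows. A total of 16024 rows repeat a symbol with a suffix and were added to the row of that symbol, an inference from names. The sources used here do not give strand use in counting; antisense reads were not told apart.

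The test on the counts was that of edgeR 4.0.16 under R 4.3.3: filterByExpr (min.count 10), TMM, robust quasi-likelihood, no covariate, Benjamini-Hochberg adjustment over 22247 genes. The script was tested on simulated data. DESeq2 1.42.0 and other settings were alternatives. Libraries of a group differed by more than sampling noise, and each was treated as 1 replicate. That spread cannot show whether the libraries came from separate clutches. Symbols were matched directly or through synonyms of RefSeq GRCz12tu, used for names only. The members and lists were chosen with earlier results of these data known. Named genes are all members, called genes of the lists (2 values where none was called; up to 4 for the peroxisome and MYC lists), called neighbours and the 5 profiles most like paox; others named, such as paox1, were chosen after their values were seen. Some called genes that this rule covers are not reported here.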

Additional observations from a re-analysis of the deposited data

How the results depend on the processing

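The odc1 call and the count of 1 called gene among the 9 other than paox held under all 12 alternatives, with odc1 between -0.79 and -0.62, and paox stayed between -3.79 and -2.88. Both MYC family calls held as well. With rows as deposited only 8 of those 9 genes were tested, because the plain amd1 row did not pass the filter. The odc1 to antizyme ratio difference was between -0.72 and -0.53 when a library was left out. Its direction could not turn there, because the groups did not overlap. Leaving out a library gave 579 to 1070 called genes in all, 3 to 5 of the wider pathway and 2 to 5 neighbours. DESeq2 called 4 wider pathway genes. With rows as deposited 2049 rows were called, and 2 peroxisomal genes in place of 1. The sign turned when a library was left out for amd1 (-0.39 to 0.12), srm (-0.14 to 0.021), sms (-0.031 to 0.010) and oaz1b (-0.0054 to 0.077), none of them called; the cause was not tested. With rows as deposited the plain rows of mat2al (-5.00) and enoph1 (-1.99) were called and that of slc3a2a was not. Same-numbered libraries did not deviate together (correlations -0.03, 0.05 and -0.00), so no pairing by number was seen. That cannot show whether they were made together, which the labels do not give. With the replicate block 1362 genes were called and 6 of the wider pathway, the sat1a.2 call being lost (adjusted p = 0.0563). Depth limits azin1b and paox, which had at most 116 counts in a library.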
